A study of Mus musculus with 4 samples.

Results

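Interferon-stimulated genes with antiviral or sensing roles were followed in non-parenchymal cells of the mouse liver, library by library and within cells gated by a pair of marker genes. A list of 44 gene symbols defined the set, and 43 of them were found among the 31053 features of the count tables. Mx2 was not analysed here. The list was given by symbol, and it was chosen with earlier results of these data known. The mice carried Col1a2-CreERT2, a tamoxifen-dependent recombinase driven from the promoter of a collagen gene of mesenchymal cells, together with a tdTomato reporter at the R26 locus (R26RtdTomato in the series' design, with the number after the first R running on from sample to sample in the genotype labels). Steatohepatitis was induced over 8 weeks with a diet deficient in methionine and choline that held 45% fat, with 0.1% L-methionine in the drinking water (MCDHF). The libraries compared were reporter-positive cells of recovery mice, reporter-negative cells of recovery mice and reporter-negative cells of MCDHF-injury mice. All of them carried both the recombinase and the reporter. Reporter-positive cells of MCDHF-injury mice form a further library with 5311 barcodes, which was not analysed here for counts. The sources used here give no length of recovery, no number of animals behind a library and no method of separating the fractions. No library of untreated mice was used. The reporter transcript is not among the features, so the fractions are taken as labelled.

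Interferons are secreted proteins that bind paired receptors on neighbouring cells and act through receptor-bound kinases, among them Jak1 and Tyk2. A complex that includes Stat2 and Irf9 then binds the interferon-stimulated response element (ISRE) in the promoters of many genes, whereas interferon-gamma acts mainly through the gamma-activated site (GAS). The products of these genes sense foreign nucleic acids, block viral entry, translation and release, and feed back on the pathway. Sinusoidal endothelial cells, which line the liver's fenestrated capillaries, are known as scavenger cells that also sense microbial products.

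The promoters of several members show the elements through which the pathway acts. RefSeq windows (build GRCm38.p6) from 250 bases before to 50 bases after the annotated start were found for 34 of the 43 members, in 38 windows. The ISRE core, GAAA, any 2 bases and GAAA again, searched on both strands, stood in the windows of 19 of these 34 genes (55.9%), against 3.99% of all 27025 genes in the table. The GAS core TTCNNNGAA stood in the windows of 9 of the 34 (26.5%), against 9.55% of all genes. The promoters of 4 members with different distributions over the cell classes are shown 5′ to 3′ on the gene's strand, with the ISRE core in capitals. Isg15 (chr4:156200769-156201068, minus strand) is a shared member, Rsad2 (chr12:26456403-26456702, minus strand) one with its highest levels in endothelial cells at injury, Bst2 (chr8:71537423-71537722, minus strand) a member that differed far more in duct than in sinusoidal cells, and Gbp2 (chr3:142620413-142620712, plus strand) a mesothelial one.
Isg15: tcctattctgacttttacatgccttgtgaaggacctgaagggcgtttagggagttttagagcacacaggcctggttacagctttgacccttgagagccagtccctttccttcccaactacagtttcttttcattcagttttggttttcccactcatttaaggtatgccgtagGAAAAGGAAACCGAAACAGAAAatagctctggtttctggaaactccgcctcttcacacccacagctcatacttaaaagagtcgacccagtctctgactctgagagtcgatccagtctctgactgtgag
Rsad2: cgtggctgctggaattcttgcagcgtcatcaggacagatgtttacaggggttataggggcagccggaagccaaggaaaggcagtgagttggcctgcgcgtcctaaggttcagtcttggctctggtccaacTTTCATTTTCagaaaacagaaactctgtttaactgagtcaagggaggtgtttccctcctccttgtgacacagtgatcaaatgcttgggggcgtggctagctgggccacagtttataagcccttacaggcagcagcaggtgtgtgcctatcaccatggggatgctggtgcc
Bst2: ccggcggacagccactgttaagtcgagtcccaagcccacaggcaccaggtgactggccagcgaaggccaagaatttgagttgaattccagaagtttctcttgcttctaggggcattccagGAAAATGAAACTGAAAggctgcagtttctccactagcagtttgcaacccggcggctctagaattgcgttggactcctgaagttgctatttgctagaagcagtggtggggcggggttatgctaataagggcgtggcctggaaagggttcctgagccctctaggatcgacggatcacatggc
Gbp2: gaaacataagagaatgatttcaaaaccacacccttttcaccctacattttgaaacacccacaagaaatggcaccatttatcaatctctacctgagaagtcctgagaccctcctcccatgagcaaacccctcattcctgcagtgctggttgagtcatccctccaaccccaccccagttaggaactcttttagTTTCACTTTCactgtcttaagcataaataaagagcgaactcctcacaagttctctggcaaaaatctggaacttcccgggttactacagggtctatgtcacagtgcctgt
In Isg15, 3 cores overlap in a single run that begins 78 bases before the start, and in Bst2 2 cores overlap from 130 bases before it. Rsad2 and Gbp2 hold 1 core each, on the opposite strand, whose first base on the strand shown lies 120 and 59 bases before the start. Irf7, the member with the most even difference over the classes, has no such core in its window (chr7:141266375-141266674, minus strand). These matches describe the letters in the windows and nothing was measured on binding.

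The deposited values are counts of unique molecular identifiers (UMIs), each of which marks a single captured RNA molecule. Cells that had 300 genes or more and no more than 20% of UMIs from mitochondrial genes numbered 2488 in positive recovery, 2955 in negative recovery and 5448 in negative injury, with 27291101 to 48735309 UMIs a library and a median of 6857 to 11278 UMIs a cell. Libraries shared between 3 and 8 barcodes. A cell entered a class when it held at least 1 UMI of both gate markers and passed no other gate, which left out 84 to 226 cells a library. In the order positive recovery, negative recovery and negative injury, the gates held 139, 2113 and 3184 sinusoidal cells (Clec4g and Stab2), 25, 388 and 1042 duct cells (Epcam and Spp1), and 1369, 79 and 268 mesothelial cells (Upk3b and Nkain4). They held 1, 21 and 56 vascular cells (Vwf and Ly6c1) and 146, 4 and 40 stellate cells (Lrat and Reln). Classes were compared only where both groups held at least 50 cells. The gates were checked against 5 further markers each. In negative injury the further sinusoidal markers summed to 8079 CPM (UMIs scaled to a library or class total of 1000000) in sinusoidal cells, against 63.9 in duct and 21.02 in mesothelial cells. The further mesothelial markers summed to 4743 CPM in mesothelial cells, against 54.8 in duct and 14.9 in sinusoidal cells. The further duct markers stood at 2287 CPM in duct cells and 13.3 in sinusoidal cells, but at 1384 in mesothelial cells. Of these markers Krt19 and Krt7 are also known in mesothelium. In vascular cells of the same library the further sinusoidal markers were at 20.2% of their level in sinusoidal cells, so this gate is not free of sinusoidal signal.

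Each group is 1 library. No test was run, differences have no replicate check, and every interval is a 95% interval of counting error only. Levels are CPM of UMIs summed over cells. The count of each transcript comes from its 3′ end and is not scaled by length. Ratios are on the log2 scale after 10 CPM was added to each level, which understates changes of low genes, and a member is counted as higher or lower where this ratio passes 2-fold. Differences between libraries cannot be told apart from differences between the mice or preparations behind them.

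In the negative fraction the set was higher at injury than at recovery. The summed level of the 43 members was 5879 CPM (5850 to 5908) in negative recovery and 15201 CPM (15166 to 15235) in negative injury, a 2.59-fold difference. Positive recovery lay nearer to the other recovery library, at 6767 CPM (6739 to 6795). At injury 28 of 43 members were at least 2-fold higher and 0 were lower, against 3.08% and 1.4% of the 10770 genes with a mean of at least 5 CPM over both libraries. The median log2 ratio of the members was 1.53 and that of all these genes -0.10. Of the members, 42 reached that mean level. The 5 leading members, Ifitm3, Ifitm2, Bst2, Ifi27l2a and Lgals3bp, made up 52.6% of the members' UMIs at injury. The 5 leading members of negative recovery made up 72.3%.

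**Figure D1:**
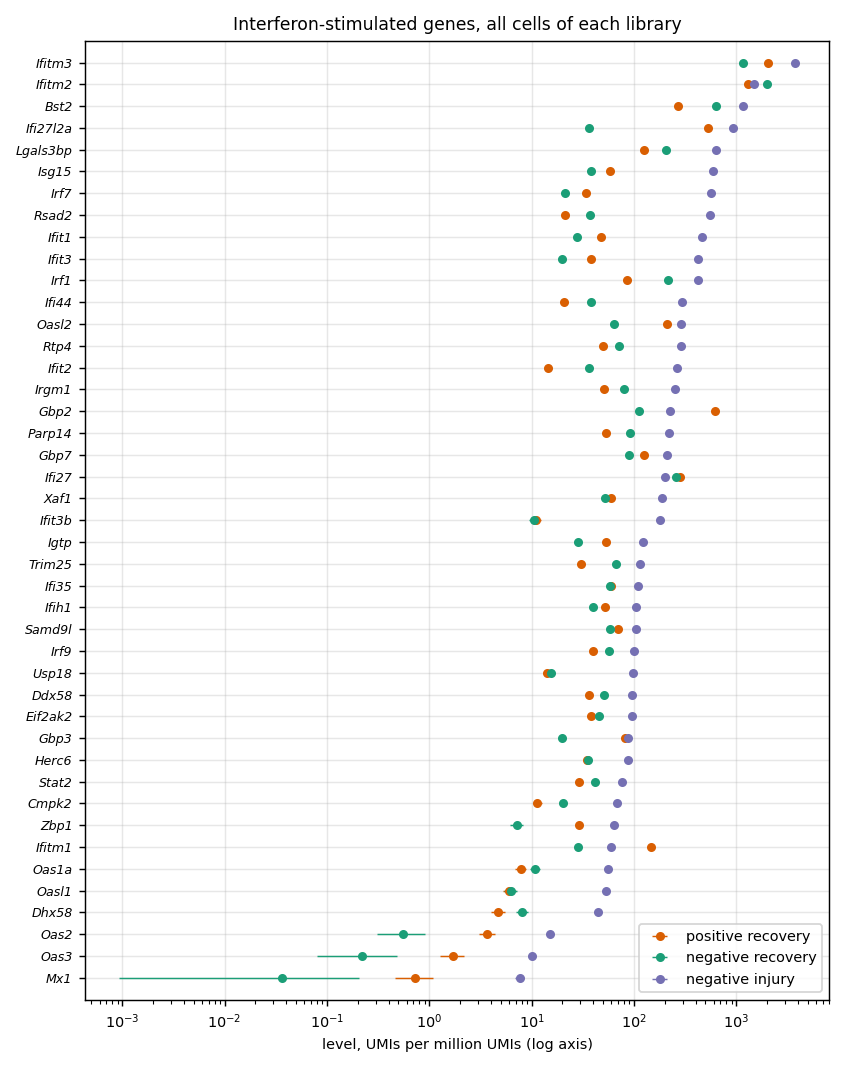
Level of each of the 43 members in CPM, on a log axis, over all cells of each library (positive recovery, negative recovery, negative injury as labelled); points are single libraries and lines are exact Poisson intervals, which cover counting error only. Most members lie furthest to the right in negative injury, with Irf7 at 34.1, 21.1 and 571 CPM, while Ifitm2 is lower there than in negative recovery.

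Among the transcription factors of the pathway, Irf7, which amplifies the interferon response, was at 34.1 CPM in positive recovery, 21.1 in negative recovery and 571 in negative injury. Irf1, a factor induced by both interferon-gamma and inflammatory signals, was at 86.3, 214 and 419 CPM in the same order. Only the injury library was high for Irf7, whereas Irf1 also differed between the recovery libraries. Irf7 was 27.1-fold higher at injury over all negative cells (24.9 to 29.5), and Irf1 1.96-fold. Usp18, a protease that removes Isg15 from proteins and dampens receptor signalling, had a log2 ratio of 2.10. The partners of the ISRE-binding complex differed less, with 0.74 for Stat2 (76.5 against 41.7 CPM) and 0.73 for Irf9 (101 against 57.1 CPM).

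Isg15, a ubiquitin-like protein that is attached to other proteins, was at 58.1 CPM in positive recovery, 38.1 in negative recovery and 589.5 in negative injury. The difference between the negative libraries was 15.5-fold (14.5 to 16.5). Herc6, the ligase that attaches Isg15 in the mouse, had a log2 ratio of 1.11. The IFIT proteins bind viral RNA and block its translation, and their 4 genes lie together on chromosome 19. Ifit1 was at 48.1, 27.9 and 462 CPM and Ifit3 at 37.9, 19.8 and 424 CPM in positive recovery, negative recovery and negative injury. Both were low in the 2 recovery libraries and high in the third. Ifit2 and Ifit3b had log2 ratios of 2.55 and 3.22. Ifit3 and Ifit3b are near-identical copies whose reads can be split between them, so their separate values are uncertain.

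Rsad2 (viperin), an enzyme that makes a chain-terminating nucleotide, was at 21.2, 36.8 and 555 CPM in positive recovery, negative recovery and negative injury. Its neighbour Cmpk2, a nucleotide kinase that supplies it, had a log2 ratio of 1.37. Ifi44, an interferon-induced protein of the cytoplasm, was at 20.9, 38.1 and 293 CPM. Ifi27l2a, a small hydrophobic interferon-induced protein, was at 524, 36.6 and 930.4 CPM. Unlike the members above, Ifi27l2a was also high in positive recovery. Its relative Ifi27, whose gene (chr12:103434211-103440239, plus strand, build mm10) neighbours that of Ifi27l2a (chr12:103442167-103443680, minus strand), went the other way, at 279, 260.2 and 200.8 CPM.

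The IFITM proteins sit in membranes and hinder the fusion of virus and cell. Ifitm3, the most abundant member at injury, was at 2022, 1163 and 3781 CPM in positive recovery, negative recovery and negative injury. Ifitm2 was at 1289, 1983 and 1475 CPM, so its level at injury lay between those of the recovery libraries. Bst2 (tetherin), which holds budding virus at the cell surface, was at 272, 629 and 1163 CPM. Lgals3bp, a secreted glycoprotein that binds galectins, was at 125, 205 and 639 CPM. The genes of the oligoadenylate synthase (OAS) family, whose active members make the messenger that switches on the nuclease RNase L, were past 2-fold in 4 of 5 cases, with log2 ratios from 0.98 (Oas3) to 2.02 (Oasl2).

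The RNA and DNA sensors and their partners passed 2-fold in 3 of 6 cases. Zbp1, a sensor of Z-form nucleic acid, had a log2 ratio of 2.10, Dhx58 (LGP2) 1.59 and Ifih1 (MDA5) 1.20. Ddx58 (RIG-I), the RNA-activated kinase gene Eif2ak2 and Trim25, a ubiquitin ligase of the RIG-I pathway, were within 2-fold, with 0.80, 0.92 and 0.70. Trim25 stood at 30.2, 66.6 and 114 CPM in positive recovery, negative recovery and negative injury. Of the GTPases that act at the membranes around microbes, Igtp, Gbp3, Irgm1 and Gbp7 had log2 ratios of 1.79, 1.73, 1.53 and 1.13. Gbp2 was just under 2-fold at 0.95. Mx1, a dynamin-like restriction factor of the nucleus, had 374 UMIs at injury and 1 at recovery, a ratio of 209 whose counting interval runs from 37.4 to 8294. With 10 CPM added its log2 ratio was 0.82, so Mx1 was not counted as higher. Among the remaining members the log2 ratios were 1.89 for Rtp4, 1.69 for Xaf1, 1.18 for Parp14, 0.81 for Ifi35 and 0.75 for Samd9l (105 against 58.0 CPM).

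The difference was present within each class that could be compared. In sinusoidal cells the members summed to 6699 CPM at recovery and 17247 CPM at injury, in duct cells to 2798 and 12199 CPM, and in mesothelial cells to 7132 and 16673 CPM. The folds were 2.57, 4.36 and 2.34. Of these 3 classes, duct cells had the lowest level at both stages and the largest fold. In sinusoidal cells 32 of 43 members were at least 2-fold higher and 1 (Ifi27) lower, against 2.5% and 0.734% of 9534 genes, with a median log2 ratio of 1.55 for the members and -0.17 for all genes. In duct cells 32 members were higher and 0 lower, against 1.88% and 0.803% of 10466 genes, with medians of 1.61 and -0.07. In mesothelial cells 25 were higher and 0 lower, against 2.36% and 2.26% of 9847 genes, with medians of 1.09 and -0.09. Of the members, 40, 42 and 41 reached the mean level of 5 CPM in sinusoidal, duct and mesothelial cells. The mesothelial recovery group has only 79 cells and 1452459 UMIs, which limits the precision of its low members.

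**Figure D2:**
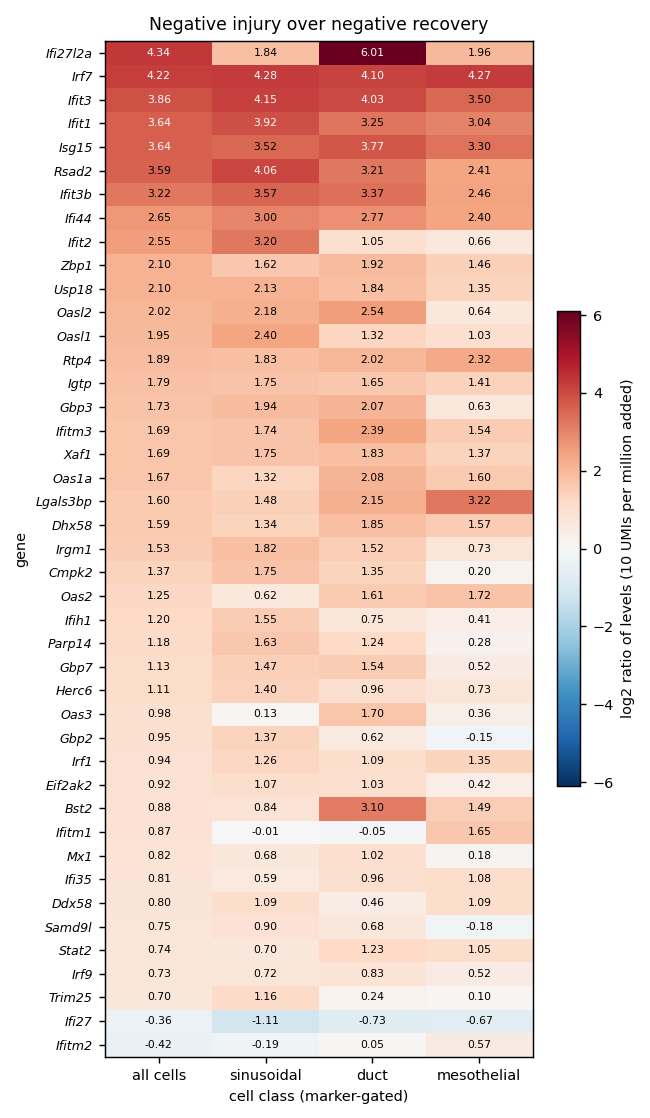
Heat map of the log2 ratio of negative injury over negative recovery, with 10 CPM added, for each member (rows, ordered by the ratio over all cells) over all cells and in sinusoidal, duct and mesothelial gated cells (columns), red for higher and blue for lower at injury. The class values are alike for Irf7 (4.28, 4.10 and 4.27) and far apart for Ifi27l2a (1.84, 6.01 and 1.96).

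A shared core of 19 members was at least 2-fold higher at injury in all 3 classes, against 0.387% of 11887 genes (46 genes). These were Isg15, Ifit1, Ifit3, Ifit3b, Ifi27l2a, Ifi44, Ifitm3, Irf1, Irf7, Oasl1, Oas1a, Rsad2, Usp18, Dhx58, Rtp4, Xaf1, Zbp1, Igtp and Lgals3bp. With 50 CPM added, Ifi27l2a, Irf1, Oasl1, Oas1a, Usp18, Dhx58, Zbp1 and Igtp fell under 2-fold in at least 1 class. Oasl1 of mesothelial cells (log2 ratio 1.03) also did so with gates of 2 UMIs (0.98), with equal weight of cells (0.96) and without deep cells (0.93). Irf1 of duct cells (1.09) did so with the 1% limit on hepatocyte-list UMIs (0.99). Irf7 was the most even of the strong ones. It went from 19.5 to 561 CPM in sinusoidal cells, from 27.1 to 627 in duct cells and from 15.8 to 487 in mesothelial cells, and the 3 folds of 28.8 (25.9 to 32.2), 23.1 (19.6 to 27.5) and 30.8 (20.5 to 48.6) have overlapping intervals. Isg15 went from 30.6 to 455 CPM in sinusoidal, from 52.8 to 846 in duct and from 28.2 to 368 in mesothelial cells. Its folds of 14.9, 16.0 and 13.0 also have overlapping intervals, although of the 3 classes duct cells had the highest level at injury (vascular cells stood at 951 CPM). Ifit3 had log2 ratios of 4.15, 4.03 and 3.50 in sinusoidal, duct and mesothelial cells, and Xaf1, a partner of an apoptosis inhibitor, 1.75, 1.83 and 1.37.

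A further 12 members were past 2-fold in 2 classes, 8 in 1 class and 4 (Ifi27, Ifitm2, Irf9 and Samd9l) in none. For these numbers of classes no share over all genes was taken. Class by class, 2.5%, 1.88% and 2.36% of genes were higher in sinusoidal, duct and mesothelial cells. By role, the IFIT genes were past 2-fold in 4 of 4 cases in sinusoidal and in duct cells and 3 of 4 in mesothelial cells. All 6 sensors and their partners passed it in sinusoidal cells, and 3 of 6 in each of the others. All 5 OAS family genes passed it in duct cells, and 3 of 5 in each of the others. Of the 6 GTPases, 5 were past 2-fold in sinusoidal cells, 5 in duct cells and 1 (Igtp) in mesothelial cells. These counts have no test of their difference between classes.

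Several members had their highest level or ratio of the 3 compared classes in sinusoidal cells. Rsad2 went from 53.5 to 1051 CPM in sinusoidal cells, from 4.80 to 127 in duct cells and from 2.07 (3 UMIs) to 54.2 in mesothelial cells. The intervals of the folds, 19.6 (18.4 to 20.998), 26.4 (17.9 to 40.9) and 26.3 (8.90 to 128), overlap, the last being wide. With 10 CPM added the log2 ratios were 4.06, 3.21 and 2.41. Of the 3 classes, sinusoidal cells had the highest Rsad2 level at both stages, and whether the folds differ was not tested. The 56 vascular cells at injury, the other endothelial class, stood at 913 CPM for Rsad2 and 358 CPM for Ifit2. Ifit2 went from 48.8 to 530.0 CPM in sinusoidal cells, a 10.9-fold difference (10.1 to 11.7). In duct cells it went from 14.0 to 39.7 CPM, or 2.83-fold (2.22 to 3.65), and in mesothelial cells from 2.75 to 10.1 CPM. The counting intervals of the Ifit2 folds in sinusoidal and duct cells thus do not overlap, but whether the folds differ was not tested. The log2 ratio of Ifit2 in duct cells was 1.05. It was 0.49 with 50 CPM added, 0.9995 with equal weight of cells and 0.95 without cells above 2 times the median UMIs. Trim25 was past 2-fold only in sinusoidal cells among the 3 compared, with log2 ratios of 1.16, 0.24 and 0.10 in sinusoidal, duct and mesothelial cells. Ifih1 (1.55, 0.75 and 0.41), Gbp2 (1.37, 0.62 and -0.15) and Herc6 (1.40, 0.96 and 0.73) followed the same order.

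Of the 3 classes, duct cells had the largest ratios for Ifi27l2a and Bst2. Ifi27l2a went from 18.1 to 1793 CPM in duct cells, a 99.3-fold difference (81.1 to 123). In mesothelial cells it was high at both stages, at 492 and 1945.5 CPM (3.96-fold, 3.67 to 4.28), and in sinusoidal cells low at both, at 1.43 and 30.9 CPM (21.6-fold, 14.5 to 33.6). The level of duct cells at injury thus came near that of mesothelial cells, while at recovery it lay far below it. Bst2 went from 99.2 to 929 CPM in duct cells (9.37-fold, 8.58 to 10.2), from 190.0 to 551 in mesothelial cells (2.90-fold) and from 838 to 1503 in sinusoidal cells (1.79-fold, 1.76 to 1.83). Of these 3 classes, sinusoidal cells had the least relative difference and the highest level at both stages. Vascular cells stood higher at injury, at 1969 CPM, as did the 40 stellate cells, at 1598 CPM. Oas3 had 4 UMIs in duct cells at recovery and 400 at injury, or 25.1 CPM, against 19 UMIs in all sinusoidal cells at injury. Sinusoidal cells at recovery had 0 Oas3 UMIs, so the difference there is at least 5.56-fold, taken against 3 counts over the class. For Mx1 the bound is at least 35.1-fold in sinusoidal cells, with 120 UMIs against 0, and in duct cells 171 UMIs stood against 1. With 10 CPM added, the log2 ratios in sinusoidal cells were within 2-fold, at 0.13 for Oas3 and 0.68 for Mx1. The duct gate also held transcripts of the hepatocyte list, whose 5 markers summed to 6787 CPM at recovery and 9744 CPM at injury. Of these, Alb was at 4937 and 6379 CPM and Ttr at 1833 and 3268 CPM. Apoa1, Serpina1a and Fabp1 were low, at 38.8, 36.3 and 22.4 CPM at injury and lower still at recovery. The sum is thus mostly Alb and Ttr, and whether it stands for hepatocyte RNA was not tested. In duct cells with at most 1% of UMIs from this list (327 against 613 cells), 31 members were higher and 0 lower. The log2 ratios there were 5.90 for Ifi27l2a and 3.17 for Bst2, against 6.01 and 3.105 in all duct cells.

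Mesothelial cells had the largest ratios of the 3 classes for Lgals3bp and Ifitm1. Lgals3bp went from 61.3 to 652 CPM in mesothelial cells (10.6-fold, 8.63 to 13.3), from 113 to 536 in duct cells (4.75-fold, 4.37 to 5.17) and from 259 to 739 in sinusoidal cells (2.85-fold, 2.76 to 2.95). The 3 intervals do not overlap, while the levels at injury lay within 2-fold of each other. Ifitm1 went from 51.6 to 184 CPM in mesothelial cells, whereas sinusoidal cells had 18.2 and 18.1 CPM and duct cells 1.92 and 1.50 CPM. Gbp2, a GTPase induced chiefly by interferon-gamma, was high in mesothelial cells at both stages, at 1313 CPM at recovery and 1183 CPM at injury. In sinusoidal cells Gbp2 went from 45.7 to 134 CPM. Samd9l, a restriction factor of poxviruses, had ratios of 0.90, 0.68 and -0.18 in sinusoidal, duct and mesothelial cells.

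Ifi27 and Ifitm2 did not follow the set. Ifi27 was lower at injury in each class, at 60.8 against 143 CPM in sinusoidal, 376 against 630.2 CPM in duct and 182 against 297 CPM in mesothelial cells. In sinusoidal cells this was past 2-fold with a log2 ratio of -1.11, but it was -0.93 with TMM scaling, which trims the genes that differ most, and also under 2-fold with 50 CPM added and with cells in several gates kept. Ifitm2 had ratios of -0.19, 0.05 and 0.57 in sinusoidal, duct and mesothelial cells, and in duct cells the sign changed to -0.01 when each cell had equal weight. Ifitm1 of duct cells, with 24 UMIs at injury and 10 at recovery, also changed sign with the setting, between -0.05 and 0.21. TMM scaling moved ratios at injury upward by 0.12 over all cells and by 0.13 to 0.18 within the classes. With it the sign changed for Gbp2 in mesothelial cells (0.03) and for Ifitm1 in sinusoidal cells (from -0.01 to 0.12).

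Within each library, class-specific members were those at least 2-fold higher in 1 class than in every other class of at least 50 cells. In negative recovery 6 members were specific for sinusoidal cells (Ifit2, Irf1, Rsad2, Bst2, Parp14 and Lgals3bp), against 10.5% of 10945 genes. Another 5 were specific for mesothelial cells (Ifi27l2a, Ifitm1, Oasl2, Gbp2 and Gbp3), against 5.81%, and 1 (Ifi27) for duct cells, against 7.39%. Of the 40 members with a mean of at least 5 CPM there, 21 lay within 2-fold over all classes, against 57.6% of genes. In negative injury 0 members were specific for sinusoidal and 0 for vascular cells, against 2.6% and 1.33% of 10603 genes. Only Ifi27 and Oas3 were specific for duct cells, against 6.55%, and Ifitm1 and Gbp2 for mesothelial cells, against 4.33%. Stellate cells of both negative libraries fell under the limit of 50 cells and did not enter these calls. In the 40 stellate cells at injury Ifitm1 was among the 5 leading members, above its mesothelial level. In the 4 at recovery Ifitm1 led and Ifi27l2a was among the 5 leading members. Their mesothelial calls thus hold only among the classes compared. The injury library alone had a vascular class of at least 50 cells, and a member high in both endothelial classes, such as Bst2 at 1503 and 1969 CPM, cannot be specific for either. With cells in several gates kept, negative recovery also has a vascular class to compare, and its members specific for sinusoidal cells number 0 in place of 6. That vascular class holds 50 cells in place of 21, and the added cells also count in another class. The classes thus overlap in cells, and the part of this overlap in the lost calls was not tested. With 3 of 5 further markers (66 vascular cells, mesothelial cells left out) 4 members were specific for sinusoidal cells, Ifit2, Ifitm1, Rsad2 and Lgals3bp. The members within 2-fold numbered 10 of 43 at injury, against 51.2% of genes.

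**Figure D3:**
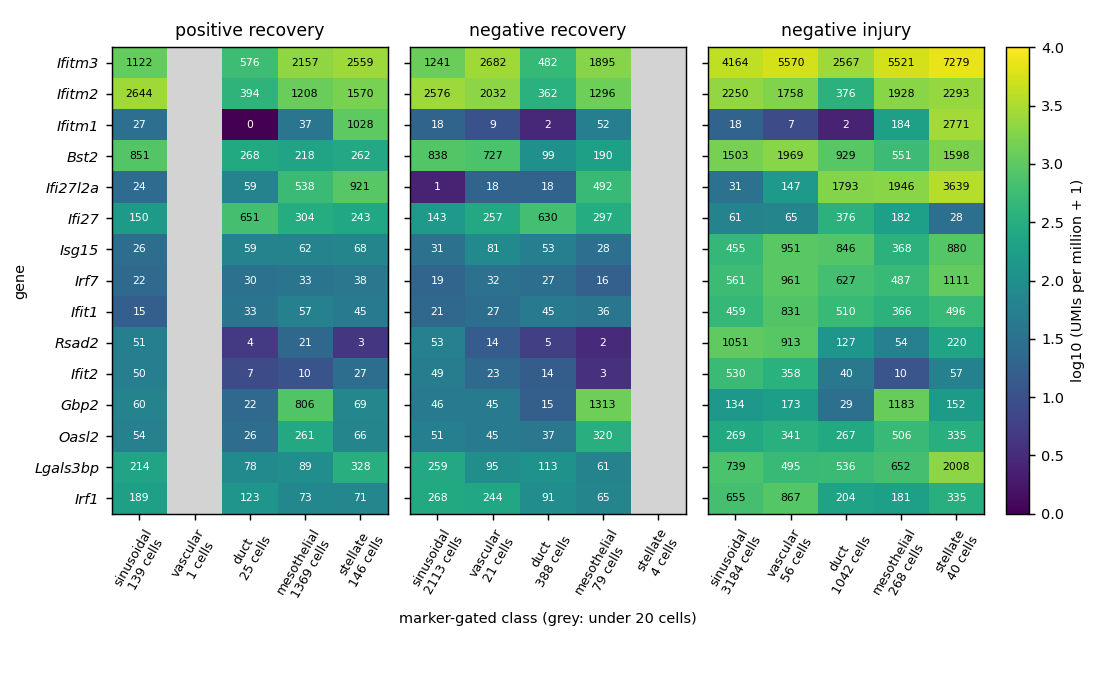
Heat map of the levels of 15 selected members (rows) in each gated class (columns) of the 3 libraries (panels); numbers are CPM, colours log10 of the CPM with 1 added, and classes under 20 cells are grey. Gbp2 is highest in mesothelial cells in each panel (806, 1313 and 1183 CPM), and Ifi27l2a of duct cells goes from 18.1 to 1793 CPM between negative recovery and negative injury.

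Stellate and vascular cells were too few for a comparison of stages, and their levels are given side by side. The 146 stellate cells of positive recovery had a summed member level of 8337 CPM and the 40 of negative injury 28798 CPM, in different reporter fractions. Ifitm1 stood at 1028 CPM in stellate cells of positive recovery, against 36.5 in mesothelial and 27.4 in sinusoidal cells of that library, and at 2771 CPM in the stellate cells of negative injury. Ifitm1 was the 1 stellate-specific member in positive recovery, against 4.81% of 10687 genes. In that library Irf1 and Bst2 were specific for sinusoidal cells, against 9.59%, and Oasl2, Zbp1, Gbp2 and Gbp3 for mesothelial cells, against 5.64%. Members within 2-fold over the classes there numbered 19 of 39, against 63.4% of genes. In stellate cells Ifi27l2a was at 921 CPM in positive recovery and 3639 CPM in negative injury, and Irf7 at 38.3 and 1111 CPM. Vascular cells had a summed level of 7379 CPM in negative recovery (21 cells) and 20687 CPM in negative injury (56 cells), with Irf7 at 31.6 and 961 CPM.

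The difference of the summed members at injury was spread over most cells of a class. Each cell was thinned to 1000 UMIs, which left out 0 to 37 cells in each class of the negative libraries, and its UMIs of all members were summed. Sinusoidal cells had a median of 6 such UMIs at recovery (10th to 90th percentile 3 to 10) and 17 at injury (7 to 27). Duct cells had 2 (1 to 5) and 12 (4 to 19), and mesothelial cells 6 (3 to 11) and 16 (11 to 23.7). The medians at injury lay above the 90th percentile at recovery in all 3 classes. The sum is led by few members. The 5 leading ones held 56.3%, 55.4% and 67.4% of the members' UMIs at injury in sinusoidal, duct and mesothelial cells, and single members can be less widely spread. Among duct cells 7.41% had no member UMI at recovery and 1.26% at injury (exact Clopper-Pearson 4.98 to 10.5 and 0.675 to 2.15).

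**Figure D4:**
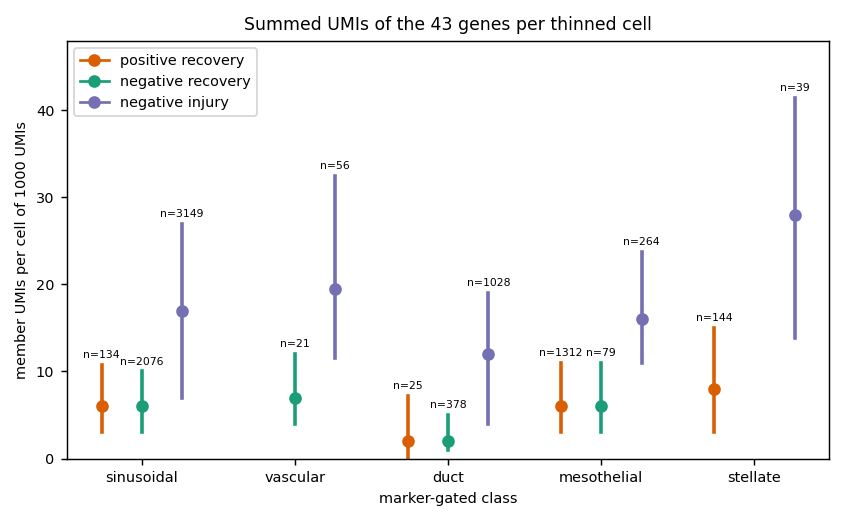
Summed UMIs of the 43 members in each cell after thinning to 1000 UMIs, by gated class and library; the point is the median and the bar runs from the 10th to the 90th percentile of cells. Sinusoidal cells move from a median of 6 to 17, duct cells from 2 to 12 and mesothelial cells from 6 to 16 between negative recovery and negative injury.

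For single members, shares of cells with a UMI are given after thinning, with the unthinned share after each. Isg15 was found in 2.60% of sinusoidal cells at recovery (17.0% unthinned) and 34.0% at injury (74.6%). In duct cells the share was 4.50% (32.0%) and 49.6% (87.8%), and in mesothelial cells 3.80% (31.6%) and 34.8% (94.4%). Ifi27l2a was found in 1.59% of duct cells at recovery (9.02%) and 61.5% at injury (83.5%). In sinusoidal cells of the injury library, where Ifi27l2a was lowest, the share was 2.73% (13.2%). Rsad2 was found in 4.43% of sinusoidal cells at recovery (24.6%) and 50.6% at injury (80.8%), but in 9.82% of duct cells (55.1%) and 5.30% of mesothelial cells (37.7%) at injury. Gbp2 was found in 64.6% of mesothelial cells at recovery (97.5%) and 61.4% at injury (98.1%), and in 2.92% of duct cells at injury (25.9%). Ifitm1 gives a low reference, at 0.389% of duct cells at injury (1.54%). The median depths of the gates at recovery and injury were 8360 and 6157.5 UMIs in sinusoidal, 11193 and 14877.5 in duct, and 15749 and 20266.5 in mesothelial cells. In sinusoidal cells the thinned shares of 39 members were higher at injury with separate intervals and those of 2 lower, against 8.68% and 17.8% of the 9534 genes. In duct cells 28 were higher and 1 lower, against 2.94% and 2.95% of the 10466 genes, and in mesothelial cells 11 were higher and 0 lower, against 1.16% and 1.14% of the 9847 genes.

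Between the fractions at recovery the set as a whole did not separate. Over all cells 6 members were at least 2-fold higher in positive than in negative recovery and 2 lower, against 8.26% and 9.48% of 10973 genes, with a median log2 ratio of 0.02. The higher members were Ifi27l2a (3.52), Gbp2 (2.37), Ifitm1 (2.05), Gbp3 (1.64), Oasl2 (1.57) and Zbp1 (1.19), and the lower ones Irf1 (-1.22) and Bst2 (-1.18). Mesothelial cells made up 55.0% of positive and 2.67% of negative recovery cells, and sinusoidal cells 5.59% and 71.5%. Within sinusoidal cells 1 member was higher (Ifi27l2a, 28 against 25 UMIs, or 24.0 against 1.43 CPM) and 0 lower, against 0.469% and 0.0939% of 9587 genes. The further mesothelial markers in sinusoidal cells of positive recovery were at 1.38% of their level in mesothelial cells, and their part in the Ifi27l2a value was not tested. Within mesothelial cells 1 was higher (Rsad2, 510 against 3 UMIs, or 21.4 against 2.07 CPM) and 0 lower, against 1.47% and 0.0993% of 10072 genes.

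Genes upstream of the set were counted in the same way. Of the 37 genes for ligands, receptors and signalling that are reported here, 1 was at least 2-fold higher at injury over all negative cells and 0 lower, a share near the 3.08% and 1.4% of all genes. The gene was Socs1, a feedback inhibitor of the kinases, at 131 against 56.9 CPM (log2 ratio 1.08). In duct and in mesothelial cells 0 of the 37 passed 2-fold, where 1.88% and 2.36% of all genes were higher. The 37 include 8 ligands so low in these libraries that they could not pass 2-fold with 10 CPM added. The shares of all genes cover only genes with a mean of at least 5 CPM, a limit that was not set on the 37. Sinusoidal cells had 6 that were higher at injury, against 2.5% of all genes, which were the factor Irf8 (1.50), the adaptor Myd88 (1.11), the DNA sensor Mb21d1 or cGAS (1.41), Socs1 (1.62), Socs3 (1.05) and the RNA editor Adar (1.12). Of the receptors 0 of 6 passed 2-fold in any class. Ifnar1, a chain of the type I receptor, was at 33.7 CPM at injury and 42.5 at recovery, and Ifnar2, its partner, at 110 and 128 CPM. Ifngr1, a chain of the interferon-gamma receptor, was at 83.8 and 91.1 CPM. Among the other abundant genes Socs3, Jak1, Stat3 and Irf2 were at 863, 772, 229 and 93.4 CPM at injury and 551, 945, 176 and 132 CPM at recovery, and Irf8 was at 201 and 97.0 CPM.

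Ligand transcripts were near the limit of detection. Ifng had 0 UMIs in both negative libraries, which allows up to 0.110 CPM at recovery and 0.0616 CPM at injury, and 69 UMIs (2.08 CPM) in positive recovery. Ifnb1 had 6 UMIs in positive recovery and 0 in the negative libraries, and Ifna2 had 1 UMI in negative injury. Ifna4, Ifne, Ifnk, Ifnl2 and Ifnl3 had 0 in all 3 libraries. Between the fractions at recovery Ifnar2 (1.01) and Irf5 (1.86) were higher in the positive library, and Jak1 (-1.96), Tlr3 (-1.05), Socs1 (-1.09) and Socs3 (-1.04) lower, against 8.26% and 9.48% of all genes. Within sinusoidal and mesothelial cells 0 of the 37 passed 2-fold between the fractions. Of all genes, 0.469% were higher and 0.0939% lower in sinusoidal cells, and 1.47% and 0.0993% in mesothelial cells, so a count of 0 is near those shares.

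Markers of leukocytes were low in the negative libraries. The 5 leukocyte markers summed to 196 CPM in positive recovery, 11.1 in negative recovery and 3.098 in negative injury, and Ptprc, the pan-leukocyte gene, was at 26.6, 0.440 and 0.0616 CPM. The macrophage markers summed to 186, 9.97 and 10.6 CPM, the T and NK markers to 35.2, 1.03 and 0.0616 CPM, and the B cell markers to 19.9, 0.660 and 0.267 CPM. Of the 3 plasmacytoid dendritic cell markers, Bst2 is itself a member, and Siglech had 0 UMIs in both negative libraries. The hepatocyte markers, in contrast, summed to 175, 1629 and 5384 CPM over all cells, and to 112 CPM at recovery and 225 at injury in sinusoidal cells of the negative fraction. Over all cells of negative recovery and negative injury, Alb was at 1123 and 3070 CPM and Ttr at 409 and 1448 CPM. Both were also high in duct cells, so these sums are not a measure of hepatocyte RNA alone. Apoa1 was at 16.0 and 431, Serpina1a at 18.5 and 93.3 and Fabp1 at 63.2 and 342 CPM. The limit on UMIs of this list in duct cells above acts mainly on Alb and Ttr. Apart from it, the part of hepatocyte RNA in the members' differences was not tested.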

How the data were processed

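Single-cell libraries of non-parenchymal liver cells were made after Pronase and Collagenase digestion and a Nycodenz gradient, by the v2 chemistry of the 10x Genomics 3′ kit, per the labels' protocols. The deposited matrices hold the authors' whole-number UMI counts for 31053 features, and per the file headers software version 3.1.0 wrote them. Builds mm10 and GRCh38 and featureCounts 1.6.2 stand in the submitters' processing notes; for the aligner and the authors' cell calling the sources used here give nothing. The 3 libraries analysed held 2606, 3108 and 6160 barcodes (positive recovery, negative recovery, negative injury).

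A cell needed 300 genes, with mitochondrial UMIs at 20% or less. No doublet caller was run: cells passing several gates were left out, and cells above 2 times the median UMIs were dropped as an alternative, so other doublets remain. Counts were summed per library and class and divided by their total (CPM). Exact Poisson intervals of sums and Clopper-Pearson intervals of shares are at 95%. For lower bounds a count of 0 was replaced by 3 counts over the group. The background was every gene with a mean of at least 5 CPM over the groups compared, which every gene past 2-fold with 10 CPM added meets. Alternatives were 1 or 50 CPM added, TMM factors from edgeR, the mean over cells of each cell's CPM, all barcodes, gates with 2 UMIs, cells in several gates kept, gates from 3 of 5 further markers, and thinning to 2000 UMIs or none. The limit of 1% UMIs of the hepatocyte list in duct cells was chosen after the data were seen.

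Named with levels in all libraries are the 12 members highest at negative injury and the 6 with the largest and the 6 with the smallest ratio; named by class are the class-specific members and the 3 largest and 3 smallest ratios; others are given by ratio, and further values beside them were chosen after they were seen. Pathway genes named are those past 2-fold and the 8 highest, with the ligands and Ifnar1 added. A single gene of the pathway list is not reported here and enters none of its counts. The members, gene lists and roles were chosen with earlier results of these data known. Gene coordinates are those of GRCm38. The calculation was tested on simulated data. Python 3.11.15, numpy 2.4.6, scipy 1.17.1, pandas 2.3.3, R 4.3.3 and edgeR 4.0.16 were used.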

Additional observations from a re-analysis of the deposited data

How the results depend on the processing

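More members were higher than lower at injury, over all cells and in each class, under each alternative that gave a value. With 50 CPM added, members higher at injury numbered 17 over all cells, 19 in duct and 15 in mesothelial cells, and the 1 lower member of sinusoidal cells became 0, as it did with TMM scaling and with cells in several gates kept. For positive over negative recovery, members lower over all cells numbered 4 with 1 CPM added and 1 with 50. In sinusoidal cells those lower numbered 3 with 1 CPM added, and those higher 0 with 50 CPM added, 2 with the mean over cells and 3 with cells in several gates kept. In mesothelial cells those higher numbered 5 with 1 CPM added and 0 with 50. Class-specific members of positive recovery numbered 4, 1 and 0 for sinusoidal cells with 1 CPM added, 50 CPM added and cells in several gates kept, and 2 for mesothelial cells with 50 CPM added. In negative recovery they numbered 3 and 0 for duct cells with 1 and 50 CPM added, and 2 for sinusoidal cells with 50 CPM added. Keeping cells in several gates adds a vascular class there and lets a cell count in several classes. Class-specific members then numbered 0 for sinusoidal, 0 for duct and 4 for mesothelial cells. With 3 of 5 further markers, which adds vascular and leaves out mesothelial cells, they numbered 4 for sinusoidal and 2 for duct cells. In negative injury they numbered 1 for vascular cells with 1 CPM added and 1 with the mean over cells, 0 for duct cells with 50 CPM added and 1 with cells in several gates kept, and 4 for sinusoidal cells with gates from 3 of 5 further markers. A larger added value shrinks the ratios of low members by construction; for the other settings the cause was not tested. Mesothelial cells had 17 members with higher thinned shares at 2000 UMIs and 29 without thinning, against 1.64% and 5.29% of genes.

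Vascular cells reached 50 in both negative libraries only under other gates. With cells in several gates kept (133 against 50 cells) 36 members were higher and 1 lower, against 2.74% and 2.44% of genes. Of these cells only 56 and 21 passed the vascular gate alone, and the others also passed another gate. With 3 of 5 further markers (62 against 66 cells) 30 were higher and 1 lower, against 3.67% and 4.07%. Ly6a, 1 of these markers, was itself higher at injury. From negative recovery to negative injury it went from 621 to 1542 CPM in sinusoidal, 43.2 to 322 in duct and 3.44 to 291 in mesothelial cells. Its part in these counts was not tested. Gates from 3 of 5 further markers gave no value for mesothelial cells of negative recovery. Leaving out a replicate was not possible with 1 library a group. No paired analysis was possible because each group has 1 library. Depth limits the members with few UMIs, Mx1, Oas2 and Oas3, and the 79 mesothelial cells of negative recovery.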
